A study of Mus musculus with 3 samples.

Results

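Mitochondrial ribosomal proteins (MRPs) are the protein subunits of the ribosome inside mitochondria. They are encoded in the nucleus, made in the cytosol and imported, and they assemble with the ribosomal RNAs of mitochondrial DNA into a small subunit, which decodes the message, and a large subunit, which forms the peptide bond and holds the exit tunnel. This ribosome makes the few proteins that mitochondrial DNA encodes, all of them core subunits of oxidative phosphorylation, and in brown adipocytes, which are dense with mitochondria, these complexes drive the respiration that thermogenesis uses. Many MRPs descend from bacterial ribosomal proteins and others have no bacterial relative.

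The genes described here were all those with a probe set annotated to a single symbol starting with Mrpl or Mrps and a digit, and each was read from its probe set with the highest mean signal over 3 arrays. The rule found 76 genes on 156 probe sets, among 18194 genes with a probe set of their own. Of the 76 genes, 75 reached a signal of 100 on 1 or more arrays and were read, among 6896 genes of the whole array, and all 75 reached it on every array, so that none was read through 1 time point only. The exception was Mrps27, a subunit with RNA-binding repeats, whose signals were 99.2, 89.2 and 86.6 at 0, 1 and 2 h. The dimmest genes read were Mrpl37 at 163.1, 137.3 and 185.9, Mrpl1 at 200.3, 195.5 and 202.2, and Mrps5 at 216.6, 221.4 and 193.6. Mrpl30 and Mrpl53 were not read, because their probe sets are annotated to a second gene as well.

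The study followed the transcriptional response of brown adipocytes to β-adrenergic stimulation, and its 3 Affymetrix arrays profiled iBATs after 1 and 2 h of isoproterenol (ISO, 1 μM), a pan-agonist of β-adrenergic receptors, and at 0 h. All iBATs were on day 8 of differentiation with insulin and indomethacin. They descend from the stromal vascular fraction of interscapular brown fat of C57BL/6 mice at postnatal day 3, and every group carries the SV40 large T antigen that immortalized them and went through puromycin selection. There was 1 array per time point and the labels name no separate cultures, so that no value has a replicate error, no test was run, and a difference between arrays cannot be told apart from a difference between times.

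Signals are MAS5 values, a linear intensity per probe set, with a mean of 100 on each array after 2% of probe sets is trimmed at each end. The median signal was 13.6, 12.7 and 13.4 at 0, 1 and 2 h. All 7 brown adipocyte markers on the array were read, with a summed signal of 16591.3, 20085.5 and 20020.9, as were 4 of 6 preadipocyte and fibroblast markers, at 5144.5, 5570.8 and 5029.2. None of the macrophage and leukocyte, endothelial or muscle markers reached 100, the highest being Cd14 at 93.2. The part of undifferentiated cells in the values below was not tested. Fewer cells of a type and less RNA per cell cannot be told apart in such bulk RNA. Ucp1, the uncoupling protein of brown fat, rose to 3673.2 at 1 h and 4166.1 at 2 h, against 1485.7 at 0 h.

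No MRP gene moved far. Of 75 genes read, 0 passed a log2 ratio of 0.8 in either direction (1.74-fold, the size at which the study called genes), either at 1 h or at 2 h, and 0 passed it between 1 and 2 h. Over all 6896 genes, 1.58% passed it upward and 0.218% downward at 1 h over 0 h. At 2 h over 0 h the shares were 2.73% and 0.812%, and between the later arrays, 2 h over 1 h, they were 0.667% and 0.319%. With shares of this size in all genes, a count of 0 in 75 is not a result about the family.

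Most MRP genes nevertheless had a slightly lower signal at 2 h. The median log2 ratio of the 75 genes for 2 h over 0 h was -0.12, a fold of 0.920, against -0.07 over all genes, and 60 genes (80%) lay below 0, 14 above and 1 at 0, against 61.4% of all genes below 0. The central 50% of MRP genes lay between -0.21 and -0.03. In 14 MRP genes the log2 ratio was -0.25 or lower and in 3 it was 0.25 or higher, against 21.6% and 12.7% of all genes, so that the lower signals of the family were many and small. The robust spread of the family, a scaled median absolute deviation, was 0.134, against 0.235 over all genes. The 4812 genes within the same range of mean signal (162.1 to 2194.5) had a median of -0.06 and 59.7% below 0.

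At 1 h the family lay closer to 0. The median for 1 h over 0 h was -0.05, against -0.02 over all genes, with 49 MRP genes (65.3%) below 0 against 55.6% of all genes, and the range was -0.34 to 0.27. This direction depended on the scaling between arrays. When the arrays were scaled to the same median signal, the median was 0.05 for MRP genes and 0.08 for all genes, and 24% of MRP genes lay below 0 against 31.99% of all. Between the later arrays, 2 h over 1 h, the median was -0.10 against -0.04 over all genes, and 60 MRP genes (80%) lay below 0 against 59.3% of all. With the same median signal, the share was 92% against 74.1% of all. Both comparisons with 0 h share the 0 h array.

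Over the 3 times, 38 of 75 MRP genes (50.7%) had a lower signal at each later time, against 33% of all genes. A higher signal at each later time was found in 4 MRP genes (5.33%), against 17.9% of all genes, and these were Mrpl33, Mrpl46, Mrpl50 and Mrpl51. All 4 belong to the large subunit, as do 49 of the 75 genes read. The first of these counts rests on the scaling between arrays. With the same median signal, 15 MRP genes (20%) had a lower signal at each later time, against 22.9% of all genes. A higher one was found in 3 (4%), Mrpl33, Mrpl51 and Mrpl54, against 16.7% of all genes. With quantile normalization the counts were 44 (58.7%) and 3 (4%), against 32.8% and 18.4% of all genes. With cyclic loess they were 36 (48%) and 4 (5.33%), against 29.7% and 20.3% of all genes. The 4 with cyclic loess held Mrps18a in place of Mrpl51.

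**Figure D1:**
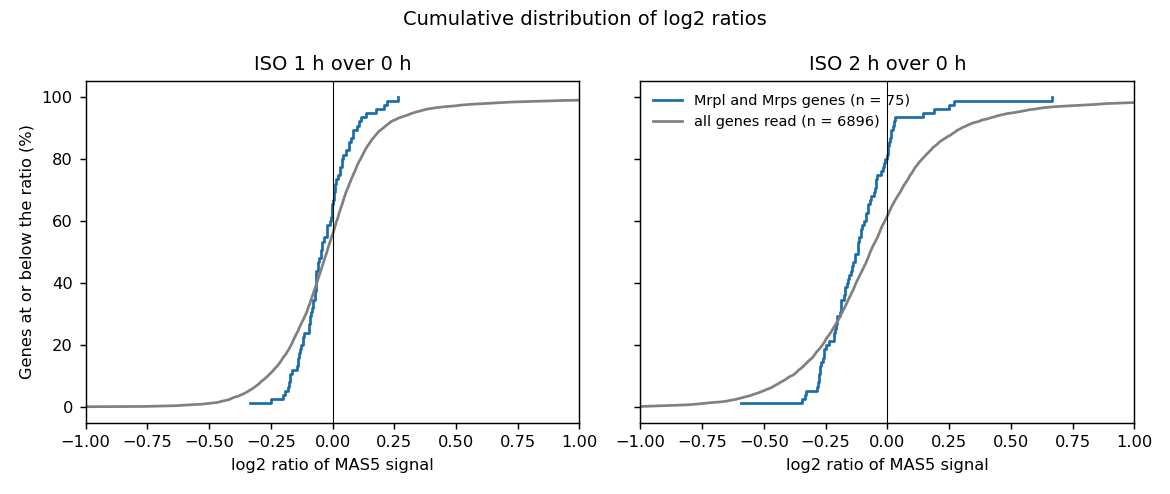
Cumulative share of genes (%) at or below each log2 ratio of MAS5 signal, for ISO 1 h over 0 h (left) and ISO 2 h over 0 h (right), in 75 MRP genes (blue) and in all 6896 genes read (grey), drawn from -1 to 1. The blue curve is the steeper one. Below 0 lie 65.3% of MRP genes at 1 h and 80% at 2 h, against 55.6% and 61.4% of all genes. At 2 h, Mrps30 lies at 0.

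By subunit, the small subunit had the lower median at 2 h. Its 25 genes read had a median log2 ratio of -0.16 with 23 below 0, and the 49 genes of the large subunit a median of -0.09 with 36 below 0. Mrps30 and Mrps18a are counted with the large subunit, where their proteins sit, and Mrps36 with neither, since its protein is now known as a subunit of the 2-oxoglutarate dehydrogenase complex. Mrps36 had signals of 826.5, 831.8 and 779.7. Without it the family median at 2 h was -0.12 over 74 genes. At 1 h the order of the subunits was the other way round, with medians of -0.04 in the small and -0.06 in the large subunit, and the difference between the subunits was not tested.

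Within each subunit, proteins that take the position of a bacterial ribosomal protein and proteins at mitochondria-specific positions were set side by side. In the large subunit, 26 of 29 genes of bacterial positions lay below 0 at 2 h, with a median of -0.12, and 10 of 20 mitochondria-specific genes did, with a median of -0.01. In the small subunit, 15 of 16 genes of bacterial positions lay below 0, with a median of -0.14, and 8 of 9 mitochondria-specific genes did, with a median of -0.21. Among these groups, the mitochondria-specific genes of the large subunit had the largest robust spread, 0.207, and were the only one whose median lay above that of all genes. Several of them, such as Mrpl37, Mrpl38, Mrpl46 and Mrpl50, were among the 25 dimmest members of the family. Those 25 had a robust spread of 0.164, against 0.132 in the brightest and 0.106 in the middle 25. Position and signal were not separated, and the difference was not tested.

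**Figure D2:**
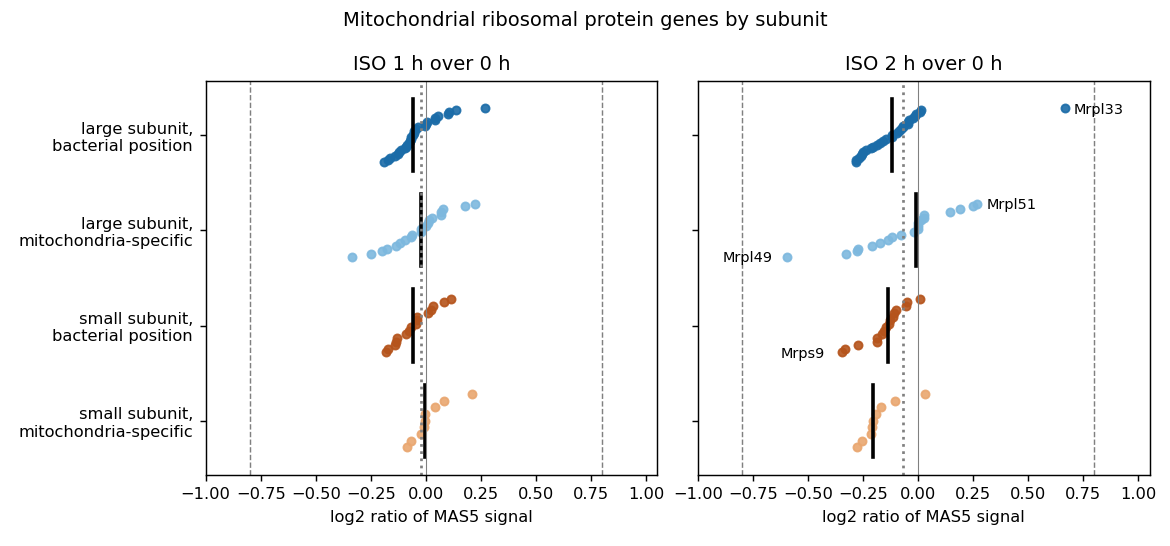
Log2 ratio of MAS5 signal for ISO 1 h over 0 h (left) and ISO 2 h over 0 h (right), 1 point per gene for the 74 ribosomal genes read, by subunit and by whether the protein takes a bacterial or a mitochondria-specific position. Thick bars are group medians, the dotted line is the median of all genes and the dashed lines mark a log2 ratio of 0.8 in either direction, which no point passes; at 2 h Mrpl33 stands at 0.67 and Mrpl49 at -0.59.

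The highest ratio of the family belonged to Mrpl33, which encodes a small protein of the large subunit whose bacterial relative lies near the tRNA exit site. Its signals were 490.4, 589.6 and 777.9 at 0, 1 and 2 h, the 2 h signal being the highest and the 0 h signal the lowest. Log2 ratios were 0.27 (1 h) and 0.67 (2 h), and this gene alone among MRP genes exceeded 0.3 at 2 h over 0 h. Mrpl51, a mitochondria-specific protein of the large subunit and the brightest probe set of the family, had signals of 2048.3, 2068.2 and 2466.9. Only the 2 h array stood apart for this gene, its log2 ratios being 0.01 (1 h) and 0.27 (2 h). Mrpl50, likewise mitochondria-specific, had signals of 246.6, 278.9 and 293.3 (log2 ratio 0.25 at 2 h). Its other probe set above the limit had 162.3, 157.8 and 156.6, a log2 ratio of -0.05, so that the direction for Mrpl50 depended on the probe set.

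The promoters of Mrpl33 and Mrpl51 are shown because these genes had the highest ratios at 2 h, and because both hold a letter run of the ETS family, to which the nuclear respiratory factor GABP belongs. The windows are from RefSeq (GRCm38.p6), run from 250 bases before to 50 bases after the annotated start, and are written 5′ to 3′ on the strand of the gene. Capitals mark CCGGAAGT, an ETS site, at -3 in Mrpl33 and at -90 in Mrpl51, where position -1 is the last base before the start, and, in Mrpl33 at -12, the core of the NRF1 site (GCATGCGC), which lies on the opposite strand. Mrpl33 lies at chr5:31613701-31614000 (plus strand) and Mrpl51 at chr6:125191950-125192249 (plus strand).
Mrpl33: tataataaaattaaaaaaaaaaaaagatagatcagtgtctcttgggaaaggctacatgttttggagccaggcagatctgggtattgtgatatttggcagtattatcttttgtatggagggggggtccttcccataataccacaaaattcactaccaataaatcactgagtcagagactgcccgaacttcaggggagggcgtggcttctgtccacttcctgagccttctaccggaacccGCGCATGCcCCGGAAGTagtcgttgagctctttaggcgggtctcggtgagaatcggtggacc
Mrpl51: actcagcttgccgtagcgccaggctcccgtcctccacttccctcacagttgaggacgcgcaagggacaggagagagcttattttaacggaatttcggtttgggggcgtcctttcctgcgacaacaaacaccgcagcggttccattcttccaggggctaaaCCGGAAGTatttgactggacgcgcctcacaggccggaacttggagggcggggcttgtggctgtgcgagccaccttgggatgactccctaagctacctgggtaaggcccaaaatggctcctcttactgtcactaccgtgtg
These letters are matches and not measured binding sites.

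On the deposited scale, several mitochondria-specific genes of the large subunit were lowest at 1 h and highest at 2 h. Mrpl1, of a bacterial position, had the same order. Mrpl37 had signals of 163.1, 137.3 and 185.9, and its log2 ratios were -0.25 (1 h) and 0.19 (2 h). Mrpl38, a protein of the central protuberance, had 234.5, 207.5 and 258.9, with log2 ratios of -0.18 and 0.14. Mrpl54 had 355.8, 333.5 and 356.1, nearly equal at 2 h and 0 h. With the same median signal, Mrpl54 was instead higher at each later time. Mrpl46, also of the central protuberance, stayed within 268.7 and 273.4 over the 3 arrays. The remaining genes among the 8 with the highest ratios, Mrpl52 and Mrps23, had log2 ratios of 0.03 each at 2 h, so that the 8 highest values already reach down to near 0.

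The opposite order, highest at 1 h and lowest at 2 h, was largest in Mrps33, a mitochondria-specific protein of the small subunit. Its signals were 792.2, 916.6 and 664.2, its log2 ratio being 0.21 at 1 h over 0 h and -0.46 at 2 h over 1 h, the lowest of the family in that comparison. Mrpl40, of the central protuberance, followed the same order with 383.1, 446.6 and 363.2. Mrpl22, whose bacterial relative lines the exit tunnel, and Mrps11, of the platform of the small subunit, were level at 1 h and lower at 2 h. Mrpl22 had signals of 680.5, 678 and 564.6, and Mrps11 of 328.8, 330.4 and 272.4, and for both genes the 2 h log2 ratio was -0.27.

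**Figure D3:**
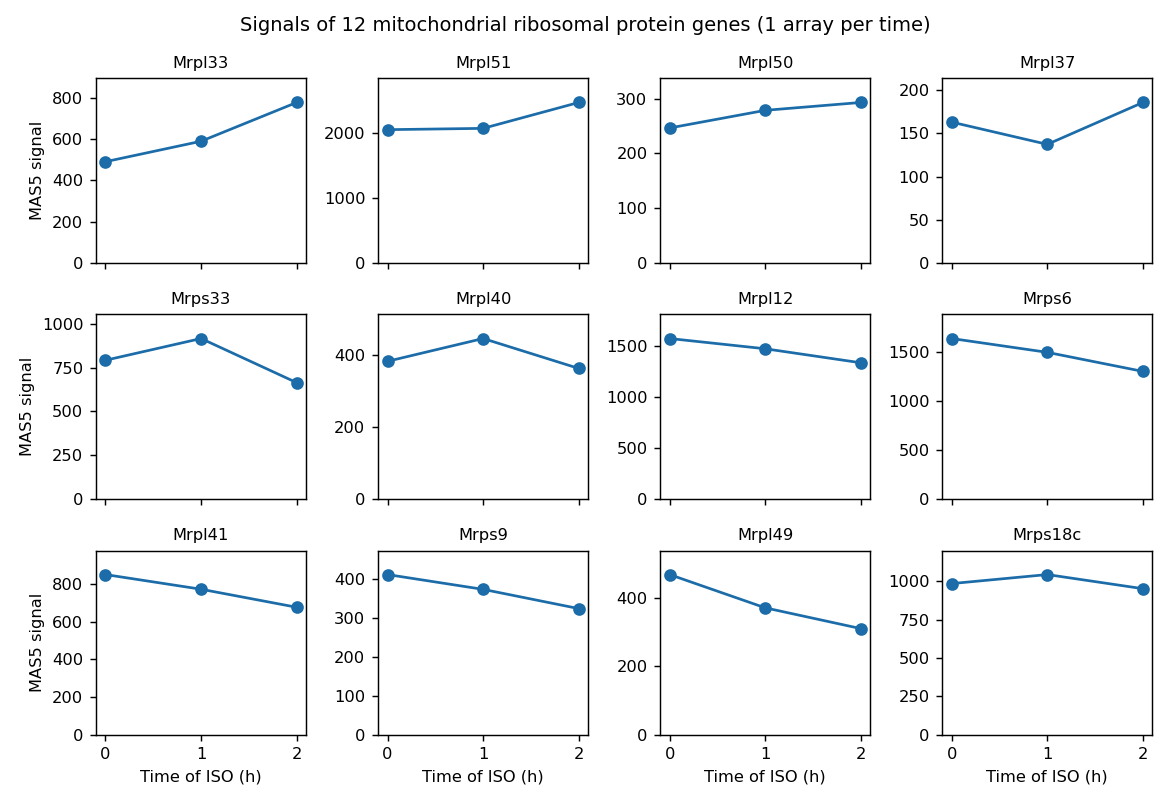
MAS5 signal (linear, each axis from 0) against time of ISO (h) for 12 MRP genes, 1 array per time. Mrpl33, Mrpl51 and Mrpl50 are highest at 2 h, Mrpl37 is lowest at 1 h, Mrps33 and Mrpl40 are highest at 1 h, and Mrpl12, Mrps6, Mrpl41, Mrps9 and Mrpl49 are lower at each later time on the deposited scale, Mrpl12 not so with the same median signal.

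The lowest ratio belonged to Mrpl49, a mitochondria-specific protein of the large subunit. Its signals were 467.3, 370.3 and 309.7 at 0, 1 and 2 h, its log2 ratios being -0.34 (1 h) and -0.59 (2 h), in both comparisons the lowest of the family. The next lowest at 2 h, Mrps9, whose bacterial relative reaches the tRNA in the peptidyl site, had 412.5, 374.4 and 324.9 (log2 ratio -0.34). Mrps6, among the 5 brightest probe sets of the family, had 1642.1, 1500.4 and 1305.1 (log2 ratio -0.33). All 3 genes had their highest signal at 0 h and their lowest at 2 h.

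On the deposited scale, the same order held for the other genes among the 8 lowest. Mrps34 did not keep it with the same median signal. Mrpl41, a mitochondria-specific protein of the large subunit, had signals of 851.1, 773.2 and 677.4 (log2 ratio -0.33 at 2 h). The remaining genes had a log2 ratio of -0.28. They were Mrpl10, whose protein carries the stalk that recruits translation factors, with 437.4, 396.2 and 359.5, Mrpl34 with 833.7, 762.9 and 686.6, Mrps34, which is mutated in a human Leigh syndrome, with 944.7, 888.4 and 779.1, and Mrpl44, a protein with a ribonuclease III fold that is mutated in a human infantile cardiomyopathy, with 476.5, 414.5 and 393.1. Mrpl19 was among the 4 lowest at 1 h, with signals of 280.8, 245.9 and 241.9.

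Among the genes with lower signal, the promoters of Mrpl49 and Mrps6 are shown, and both hold a letter run that was searched. No such run was found for Mrps9, which lay between them at 2 h, or for Mrpl41, the next lowest after Mrps6. In Mrpl49 the capitals mark TGACGTCA, the cyclic AMP response element, which is bound by CREB, a factor that protein kinase A phosphorylates, at -154 (chr19:6057706-6058005, minus strand), and in Mrps6 they mark GGGGCGGGG, a GC box of the SP1 family, at -115 (chr16:92058086-92058385, plus strand).
Mrpl49: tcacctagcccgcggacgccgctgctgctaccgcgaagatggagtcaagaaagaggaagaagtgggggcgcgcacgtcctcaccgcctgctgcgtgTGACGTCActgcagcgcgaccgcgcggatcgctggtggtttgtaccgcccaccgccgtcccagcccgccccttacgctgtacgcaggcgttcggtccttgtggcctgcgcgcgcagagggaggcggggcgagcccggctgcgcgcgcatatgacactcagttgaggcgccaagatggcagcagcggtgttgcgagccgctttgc
Mrps6: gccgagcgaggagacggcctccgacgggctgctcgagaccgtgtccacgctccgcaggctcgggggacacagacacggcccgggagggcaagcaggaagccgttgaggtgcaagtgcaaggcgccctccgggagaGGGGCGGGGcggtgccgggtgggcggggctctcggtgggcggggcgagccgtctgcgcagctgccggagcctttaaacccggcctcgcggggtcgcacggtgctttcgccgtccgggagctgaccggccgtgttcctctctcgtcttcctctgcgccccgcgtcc
Fau starts 192 bases upstream of Mrpl49 on the opposite strand, so the element lies between both starts, nearer that of Fau. Whether it acts on either gene was not tested. The cyclic AMP response element was found in 1 other MRP gene, Mrpl16, whose signals were 862.1, 860.7 and 821.7.

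Further genes are given for their roles in the ribosome. In the stalk, Mrpl12, the protein that contacts translation factors, had signals of 1570.7, 1470.2 and 1332.9 (log2 ratio -0.24 at 2 h), and Mrpl11, at the base of the stalk, had 639.4, 619.3 and 588.9. Mrpl58, a peptidyl-tRNA hydrolase built into the large subunit that releases stalled chains, had 663.9, 611.1 and 550.1, a log2 ratio of -0.27. Mrpl45, which anchors the ribosome to the inner membrane near the tunnel exit, had 466, 444.4 and 402.7, a log2 ratio of -0.21. On the deposited scale, these genes had their highest signal at 0 h and their lowest at 2 h. Mrps12, at the decoding centre, had 587.2, 560 and 531.1, the same order. With the same median signal, Mrpl58 alone among these genes kept it. Mrpl32, which the m-AAA protease matures in yeast and mouse, was lowest at 1 h on the deposited scale with 929.7, 884.7 and 904.1.

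Mammals have 3 relatives of the bacterial small subunit protein S18, each in its own place on the ribosome, of which Mrps18a and Mrps18b are counted here with the mitochondria-specific positions. Mrps18a, in the large subunit, had signals of 645, 658.2 and 651.1, Mrps18b, in the small subunit, of 496.3, 509.7 and 461.2, and Mrps18c, the copy with the bacterial position, of 986.3, 1045.1 and 953. All 3 were highest at 1 h, where the log2 ratio to 0 h was 0.03 for Mrps18a, 0.04 for Mrps18b and 0.08 for Mrps18c. At 2 h it was 0.01, -0.11 and -0.05 in the same order. Mrps30 had exactly the same signal, 448.1, at 2 h and 0 h, with 469.3 at 1 h.

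Beside Mrpl51 and Mrps6, the 5 brightest probe sets of the family were those of Mrpl39, a relative of threonyl-tRNA synthetase, with 1986.8, 1998.7 and 1827.9, Mrpl13 with 1894.4, 1821.4 and 1694.8, and Mrpl42 with 1553.8, 1485.2 and 1379.7. Signals of different probe sets do not rank the levels of their genes. Among members, the ratio at 2 h differed with brightness. Of the 25 brightest members 23 lay below 0 at 2 h, with a median of -0.16. Among the middle 25 it was 21, with a median of -0.12, and among the dimmest 25 it was 16 (64%), with a median of -0.09. Over all genes 61.4% lay below 0, with a median of -0.07, so the dimmest 25 were near that share. All genes at 200 on 1 or more arrays had a median of -0.05, with 58.9% below 0. The difference by brightness was not tested.

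Probe sets of the same gene served as the only repeat within an array, although they share the RNA. Of the 75 genes, 52 had 1 probe set that reached 100 and 23 had several, 33 beside those read. Of these 33 other probe sets, 25 lay below 0 at 1 h, with a median of -0.06, and 23 at 2 h, with a median of -0.12, and 0 passed a log2 ratio of 0.8. In 13 of 23 genes all probe sets lay on the same side of 0 at 2 h, 12 of them below. The range between probe sets of a gene at 2 h had a median of 0.126, about the size of the family's median ratio.

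Single genes depended on the probe set read. Mrps6 had log2 ratios of -0.33 on both of its probe sets, and Mrpl44 lay between -0.25 and -0.32 on all 4 of its probe sets. Mrpl49 was at -0.24 on its other probe set, with signals of 409.3, 383.9 and 345.8. Mrps9 ranged from -0.60 to 0.01 over 3 probe sets, Mrpl28 from -0.12 to 0.36 and Mrpl11 from -0.30 to 0.13. Mrpl13 was at -0.16 on the probe set read and at 0.23 and 0.24 on its others. Mrpl33 had a single probe set that reached 100. A further probe set of Mrps34, shared with Nme3, had signals of 134.6, 121 and 106.2, and the probe set shared by Mrpl53 and Ccdc142 had 942.3, 972.9 and 850.8. The probe set that names Mrpl30 together with a predicted gene had 2305.2, 2383.2 and 2265.7.

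**Figure D4:**
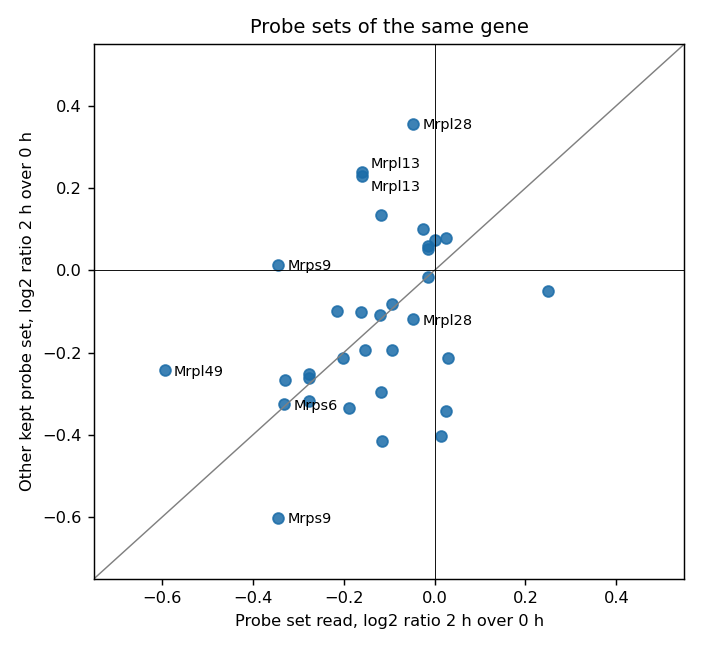
Log2 ratio for ISO 2 h over 0 h of the 33 other probe sets of 23 MRP genes, against that of the probe set read for the same gene, with the line of equal values. Mrps6 lies on the line at -0.33, the points of Mrps9 spread from -0.60 to 0.01, and both other probe sets of Mrpl13 lie above 0.

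The families most like the MRPs were read in the same way. Of 38 cytosolic ribosomal protein genes read, 34 lay above 0 at 1 h, against 3054 of all 6896 genes. Their median log2 ratio was 0.10 (1 h) and -0.02 (2 h). For MRP genes the medians were -0.05 and -0.12, and their direction at 1 h depended on the scaling between arrays, as given above. Of 70 genes for nuclear-encoded subunits of oxidative phosphorylation, 64 lay below 0 at 2 h, against 61.4% of all genes. Their median was -0.10 at 2 h and 0.01 at 1 h. None of these genes passed 0.8, and the difference between the families was not tested.

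Genes that work with the mitochondrial ribosome were read from 6 lists, 67 of 93 listed genes being above the signal limit. None passed a log2 ratio of 0.8. The 57 genes that reached 100 on all 3 arrays had a median of -0.16 at 2 h, with 42 below 0. Over all genes at 100 on all 3 arrays, the median was -0.06 and 61.0% lay below 0. Each list holds few genes, and no list was tested against this share. The other 10 passed the limit on some arrays only, which by itself favours a difference between the arrays, so medians below are over genes above it on all 3. Of the other ribosomal subunits, Dap3, a GTP-binding protein of the small subunit, was at -0.08, Chchd1 at -0.05, Ptcd3 at 0.09 and Gadd45gip1 at -0.28. Translation factors had a median of -0.10 over 8 genes, with Pdf, the peptide deformylase, at -0.43, the initiation factor Mtif2 at -0.33 and the elongation factor Tsfm at -0.32. Aminoacyl-tRNA synthetases and amidotransferase subunits had a median of -0.22 over 9 genes with 7 below 0, with Lars2 at -0.34, Rars2 at -0.32 and Tars2 at -0.31, and 9 more on the array did not reach 100.

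Assembly factors and rRNA-modifying enzymes had a median of -0.16 over 13 genes with 9 below 0. The GTPase Noa1 was at -0.45, with signals of 143.8, 136.4 and 105. Rpusd4, a pseudouridine synthase, had 100.1, 66.4 and 66.9 and the methyltransferase Nsun4 had 116, 107.9 and 85.5, both below the limit at 2 h, and with such genes the median was -0.29 over 17. The list of mitochondrial DNA transcription and RNA processing had a median of -0.14 over 16 genes, among them Mterf2, a transcription termination factor family member, at -0.64, the transcription factor Tfb2m at -0.36 and Tbrg4, which acts in RNA stability, at 0.36. Genes for insertion of new proteins into the inner membrane had a median of -0.05 over 7 genes, with the ribosome-binding Letm1 at -0.23 and the prohibitin Phb2 at -0.22. The protease subunit Spg7, with 112.4, 92.8 and 86.1, passed the limit at 0 h only, and with it the median was -0.12.

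Nuclear regulators of mitochondrial genes differed in direction. Of 10 regulators read, 3 rose past a log2 ratio of 0.8 at 2 h, against 2.73% of all genes, and the median of the list was 0.31. The list was chosen with earlier results of these data known. The paper names Ppargc1a among ISO-induced genes and shows array levels of Ppargc1a and Ppara, so this count is not a test. Ppargc1a, the coactivator of mitochondrial biogenesis, had signals of 293.4, 487.6 and 1029.9 (log2 ratio 1.81 at 2 h), and its relative Ppargc1b had 840.6, 972 and 1489.2 (log2 ratio 0.83). Ppara, a nuclear receptor of fatty acid oxidation, had 217.1, 365.5 and 393 (log2 ratio 0.86). On the same arrays no MRP gene passed 0.8. With 2.73% of all genes past it upward at 2 h, that count is not a result about the family.

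Of the factors that bind promoters of mitochondrial genes, none of those read passed 0.8. Gabpa, the DNA-binding subunit of GABP, had signals of 629.3, 506.2 and 672.6, its log2 ratio at 2 h being 0.10. On the same scale Gabpb2 was at -0.14, Yy1 at 0.25, Sp1 at -0.06, Esrra at 0.00, Pprc1, a relative of Ppargc1a, at 0.37 and Myc at 0.44. Nrf1 was below the signal limit, at 82.2, 76.3 and 72.7. The subunit Gabpb1 was just below the limit, with the signals 49, 70.8 and 99.4 and a 2 h log2 ratio of 1.02.

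**Figure D5:**
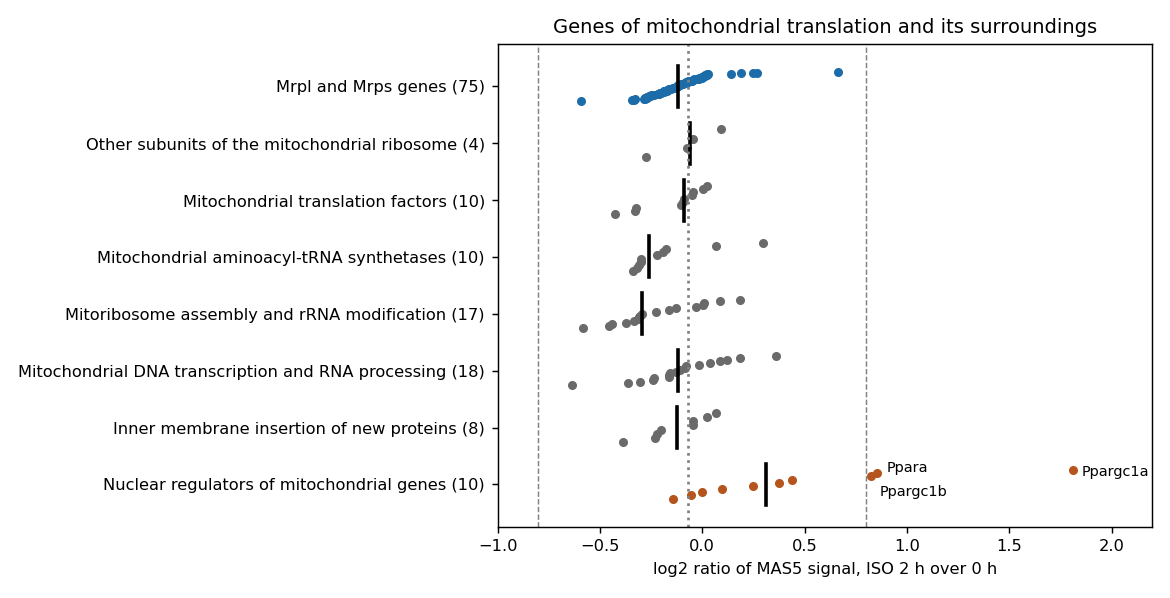
Log2 ratio of MAS5 signal for ISO 2 h over 0 h, 1 point per gene with a signal of 100 on 1 or more arrays, for 75 MRP genes and 7 lists of related genes with the number read in brackets. Thick bars are medians over all points drawn, the dotted line is the median of all genes and the dashed lines mark a log2 ratio of 0.8 in either direction; the only points past it are Ppara, Ppargc1b and Ppargc1a among the nuclear regulators.

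What the MRP promoters shared was described from the RefSeq windows, which were found for 67 of 76 genes and for 27025 genes in all. Their median GC content was 58.7%, against 52.7% over all genes. Each motif was searched on both strands. The shares over all genes include genes without signal in these cells. No share over genes of like signal or GC content was taken, so the shares do not single out MRP genes among such genes. The ETS site CCGGAAGT was in 12 MRP genes (17.9%) against 4.31% of all genes, AAGATGGCG, the site of YY1, in 8 (11.9%) against 1.64%, and the NRF1 core GCATGCGC in 8 (11.9%) against 3.05%. The full palindromic NRF1 site, which contains the core, was in 3 (4.48%) against 1.07%, in Mrpl9, Mrpl32 and Mrpl39. The GC box GGGGCGGGG was in 13 (19.4%) against 12.9%, TGACGTCA in 2 (2.99%) against 2.03%, and the E-box CACGTG in 5 (7.46%) against 8.09%.

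The 11 genes read with an ETS site had a median log2 ratio of -0.05, from -0.25 to 0.67, and the 55 without it a median of -0.13. For the NRF1 core the medians were -0.10 in 8 genes with it and -0.13 in 58 without it, and for the YY1 site -0.12 in 7 and -0.13 in 59. The cyclic AMP response element was in Mrpl49 and Mrpl16 only, at -0.59 and -0.07, with a median of -0.12 in the 64 genes without it. These are descriptions of a few genes each.

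Many MRP genes start back to back with another gene. A start on the opposite strand within 1000 bases upstream was found for 25 of 67 MRP genes (37.3%), against 12.3% of all genes. Here too, all genes include those without signal, and no share over genes of like signal or GC content was taken. Of 10 such partners that were read, 8 lay below 0 at 2 h, against 61.4% of all genes. The median of the partners was -0.12, none passed 0.8, and 6 lay on the same side of 0 as their MRP gene. These counts include Helq, the partner of Mrps18c, which passed the signal limit at 0 h only (100.5, 89.3 and 68.4). They also include Ptcd2, the partner of the unread Mrps27. Mrpl46 and Mrps11 are partners of each other, and both count among the 10. These genes start 42 bases apart and had log2 ratios of 0.03 and -0.27. The counts were not tested. Mrpl49 starts 192 bases from Fau, which encodes a protein of the cytosolic small subunit, and the log2 ratio at 2 h was -0.59 for Mrpl49 and -0.07 for Fau, whose signals were 4467.9, 4881.9 and 4249.9. Mrpl47 starts 308 bases from Ndufb5, a subunit of complex I, with log2 ratios of -0.26 for Mrpl47 and -0.07 for Ndufb5, and Mrpl43 starts 116 bases from Twnk, the helicase of mitochondrial DNA, with -0.14 and -0.16.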

How the data were processed

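Total RNA of iBATs was hybridized to Affymetrix mouse arrays, 1 per time point. The authors deposited 1 linear intensity per probe set and array, computed with MAS5 as the submitters' processing notes name it, and these intensity values still hold probe sets that the methods' filter on absent calls would remove. The platform annotation gave 1 gene symbol to 34958 of 45101 probe sets, several to 932, which were left out of the family, and none to 9211. A RefSeq table (GRCm38.p6) held 34754 of the single symbols, and 0 were updated. With 1 array per time point, the number of arrays limits the precision.

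Signals were not scaled further, and log2 ratios were taken with numpy 2.4.6 and pandas 2.3.3 (Python 3.11.15). Signals listed as 0 were given 0.1. A log2 ratio of 0.8 is the size at which the study called genes, and no p-value was computed. Promoter windows came from RefSeq by symbol. The calculation was tested on simulated data.

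Members and lists were chosen with earlier results of these data known. The genes named are the 5 brightest members and the 8 highest and 8 lowest log2 ratios for 2 h over 0 h. Further ones are the 4 highest and 4 lowest for the other comparisons, the 3 dimmest members read and any just outside the signal limit. The Mrps18 genes, Mrpl12, Mrpl58, Mrps30, Mrps36 and the 3 members whose probe sets differ most were named too. From each list the genes named are up to 3 with the largest ratio at 2 h in either direction and all past the threshold. From the regulators they are all that were read. Other genes named for their role, their probe sets or their promoter fall outside this rule and were picked with their values already known.

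In 12 alternative settings the processing was varied. Other filters were a signal of 100 on every array or on 1 of the compared arrays, 200, or none. Signals below 100 were set to 100, or 32 was added before log2. Arrays were scaled to the same median signal, by quantile normalization or by cyclic loess (limma 3.58.1 in R 4.3.3). Ratios were taken as the median over probe sets, or without probe sets whose names end in _s_at, _x_at or _a_at. Genes were also called at 2-fold. The comparison within the members' signal range, the median without Mrps36 and the other of a pair of equally bright Mrpl9 probe sets were added after the data were seen, as were the counts over 3 times under other scalings and the list medians over genes at 100 on all 3 arrays. Figures were drawn with matplotlib 3.10.9.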

Additional observations from a re-analysis of the deposited data

How the results depend on the processing

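No MRP gene passed a log2 ratio of 0.8 in any comparison under any of the 12 alternative settings, a threshold of 2-fold included. The median log2 ratio for 1 h over 0 h reversed to 0.0527 when the arrays were scaled to the same median signal, where the median of all genes was 0.0762, and it was below 0 under the other 12 of 13 alternatives, down to -0.0679. For 2 h over 0 h the median lay between -0.1487 and -0.0989, and for 2 h over 1 h between -0.1813 and -0.0801. The median of MRP genes minus that of all genes stayed below 0 under every alternative run, between -0.041 and -0.0055 at 1 h, -0.0803 and -0.0509 at 2 h, and -0.0747 and -0.0504 for 2 h over 1 h. The count of MRP genes lower at each later time was 38, against 33% of all genes. It was 15 with the same median signal, against 22.9% of all genes. With quantile normalization it was 44, against 32.8%, and with cyclic loess 36, against 29.7%. Among named genes, 6 values moved by more than the robust spread of all genes, all with another choice of probe set. With the median over probe sets, Mrpl13 was at 0.23 for 2 h over 0 h and Mrpl1 at -0.21 for 1 h over 0 h. With probe sets whose names end in _s_at, _x_at or _a_at left out, Mrpl1 was at -0.39 for 1 h over 0 h. For 2 h over 0 h, Mrpl1 was then at -0.40, Mrpl52 at -0.34 and Mrps9 at 0.01. The cause was not tested. No paired analysis was possible because there is 1 array per time point, and for the same reason no array could be left out.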
